A study of Mus musculus with 15 samples.

Results

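The response of the femur to a segmental bone defect was compared with the unoperated femur in mice that had been flown to the International Space Station. The arrays titled Flight-SAL, here FLT-Surgery, and the arrays titled Flight-SH, here FLT-Sham, were chosen by their titles, which gave 3 FLT-Surgery and 4 FLT-Sham arrays, 7 of the 15 arrays of the series. All were from male C57BL/6J mice, 9 weeks old by the labels, and 1 array was made per mouse. FLT-Surgery mice had a segment of the femoral shaft removed before launch and replaced by a pinned polymer scaffold with a collagen sponge soaked in saline only, that is without a bone-forming drug, and FLT-Sham mice were not operated on. The mice were killed and frozen in flight after several weeks of healing, and the midshaft femur was dissected later on the ground. The study describes its bone RNA as of low integrity in all cohorts. The remaining 8 arrays, 4 G-Surgery and 4 G-Sham, came from mice that stayed on the ground, and were used only to ask whether the response differed there. The groups have limits as models. All samples, shams included, carry the tissue label callus, although an unoperated bone has none. Both groups gave the same midshaft region, with marrow, cortical bone and whatever muscle stays attached. In a surgery sample a part of this region is the defect, with the tissue in and around a scaffold.

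A bone defect normally heals through overlapping stages. Inflammatory cells clear the wound, granulation tissue and new vessels fill it, cells of the periosteum form cartilage under the transcription factor Sox9, and bone-forming osteoblasts, directed by Runx2 and Sp7 and by BMP and Wnt signals, replace the cartilage with bone that osteoclasts later remodel. A defect too large to bridge by itself is filled by fibrous tissue instead. In bulk RNA a lower value for the genes of a cell type can reflect fewer such cells or less RNA in each, and the 2 cannot be told apart here.

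Each value below is a log2 ratio of the Cy5 signal of the sample to the Cy3 signal of a reference RNA made from mouse cell lines, so that a difference of 1 is a 2-fold change and 0 is a level equal to the reference. A probe was tested if its Cy5 signal was well above the local background on at least 3 of the 7 arrays, which left 19136 of 55681 probes, and a gene was represented by its brightest probe, which gave 10128 genes. Called means a fold change of at least 2 with a limma p, before adjustment, of 0.01 or less, which is the cut-off the study used. The p values printed beside genes are adjusted over all probes by Benjamini-Hochberg unless stated. Higher and lower always refer to FLT-Surgery relative to FLT-Sham, with the standard error of the difference (SE) where it is given.

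The 7 arrays did not fall into tidy groups. The number of probes well above background in Cy5 was 12493 to 14260 in FLT-Surgery (median 14125) and 14813 to 21461 in FLT-Sham (median 20144), without overlap (exact permutation test, two-sided, p = 0.0571, where 3 arrays against 4 cannot go below 0.0286). FLT-Sham 8, with 14813, stood apart from its group. Over the tested probes its values correlated with those of the FLT-Surgery arrays at 0.882 to 0.903, and with those of FLT-Sham 4, 6 and 9 at 0.674 to 0.82, while these 3 correlated with each other at 0.914 or more. FLT-Surgery 1 was the nearest of its group to FLT-Sham 4, 6 and 9, at 0.747 to 0.865, but not to FLT-Sham 8, at 0.882. Slide is mixed with this pattern, since FLT-Surgery 3 and 5 shared slide 1 with FLT-Sham 4, and FLT-Surgery 1 shared slide 2 with FLT-Sham 6, 8 and 9. Markers of muscle, fat and red cells moved with the same arrays. The median fast-twitch muscle gene, centred on its own mean, lay at 0.52, -3.51 and -3.08 in FLT-Surgery 1, 3 and 5 and at 2.55, 2.84, -0.21 and 2.07 in FLT-Sham 4, 6, 8 and 9. The part of attached muscle in the results was not tested, and that of FLT-Sham 8 was measured by leaving it out.

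Surgery in spaceflight went with a lower signal for far more genes than a higher one. Of the genes tested, 810 were called lower (8%) and 30 higher (0.296%), 8.29% in all, and the median difference over all genes was -0.56. Of the probes tested, 1191 were called lower (6.22%) and 81 higher (0.423%), 6.65% in all. After Benjamini-Hochberg adjustment 16 probes passed at 0.05 in limma (0.0836%), with a smallest adjusted p of 0.0201. Group membership took up 41.7% of the sum of squares over probes (exact permutation test over 35 assignments, p = 0.0857). In 1669 genes (16.5%) the arrays of the 2 groups did not overlap.

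The balance between higher and lower calls depended on scaling, whereas the medians of the slow-twitch, fast-twitch, adipocyte, erythroid, electron transport and glycolysis lists stayed below 0 under each of the scalings and filters tried. With slide as a block the probes called lower went from 1191 to 489 and none passed at an adjusted p of 0.05. In that fit 327 of 10128 genes were called lower, which is the share to set beside the blocked counts of the lists below. Medians given below for members above background on all 7 arrays leave out, by construction, the members not above background in FLT-Surgery. With a second loess within each array 617 probes were called higher and 576 lower, so that the higher share went from 6.37% to 51.7%. It was 26.7% with each array centred on its median, 33.1% after normexp background correction, 23.2% with Cy5 alone and 28.9% where Cy3 and Cy5 both had to exceed background on every one of the 7 arrays. The median over all genes moved to 0.10 after loess, to -0.07 after centring and to -0.22 with Cy5 alone, from -0.56. Of the 810 genes called lower, 440 were not well above background on any FLT-Surgery array. For these the array gives only a bound, written below as at least so many fold, which sets the mean Cy5 level of FLT-Sham against the lowest level that counts as above background on each FLT-Surgery array. Where only some of the FLT-Surgery arrays were above background the difference is printed, but its size rests in part on values at background.

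**Figure D1:**
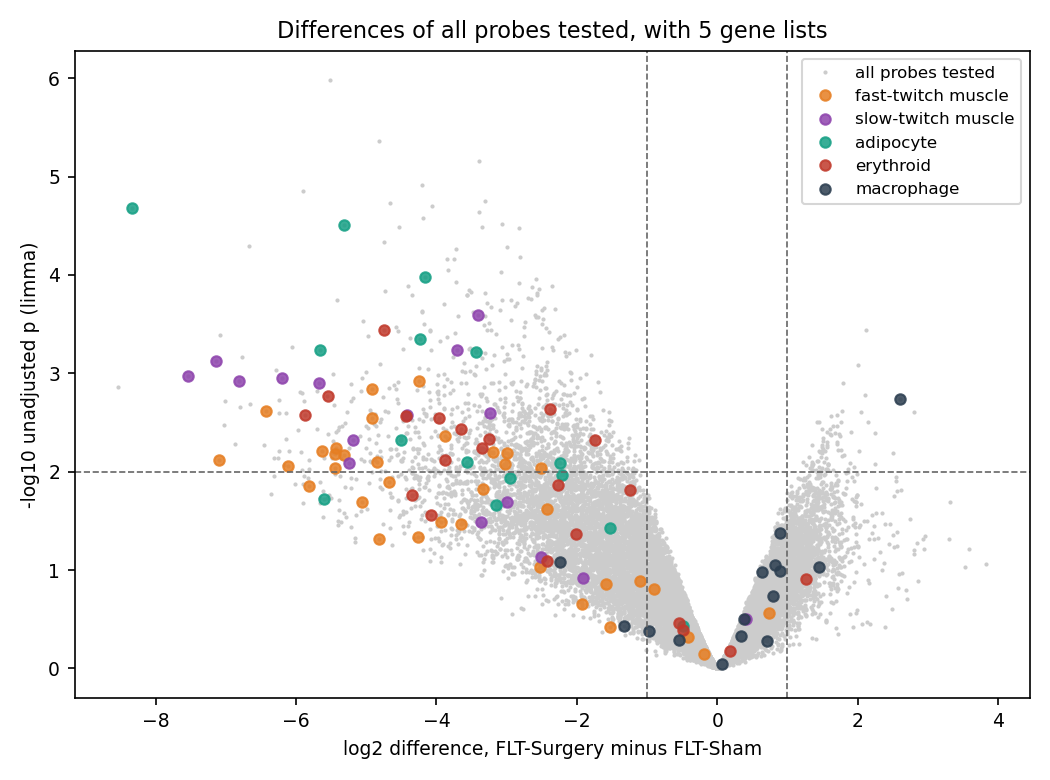
Log2 difference between FLT-Surgery and FLT-Sham (x axis) against the -log10 unadjusted p from limma (y axis) for the 19136 probes tested, with 5 gene lists in colour. Points to the left are lower in FLT-Surgery, where most called probes lie, 1191 against 81 on the right.

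Leaving out one array at a time showed how much rested on FLT-Sham 8. Without it, 3959 probes were called lower and 943 higher, and 6034 passed at an adjusted p of 0.05, while 25.8% of genes were called lower and 3.59% higher. Without FLT-Surgery 1 the counts were 2213 lower, 249 higher and 711 at an adjusted p of 0.05. Without any other array, 398 to 503 probes were called lower, 14 to 37 higher and none passed at an adjusted p of 0.05.

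**Figure D2:**
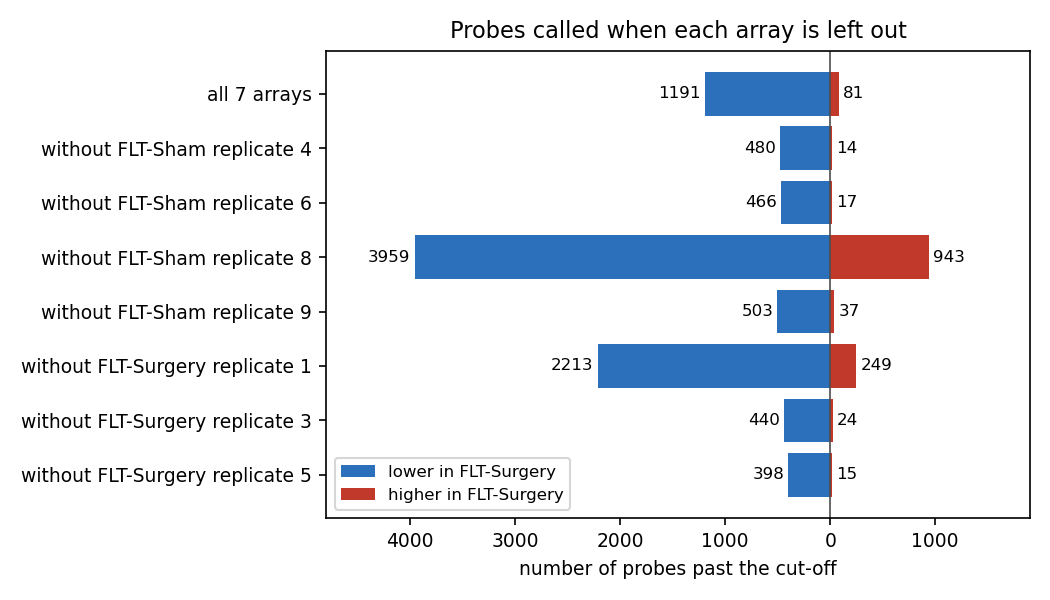
Number of probes called lower and higher in FLT-Surgery (x axis) for the full set of 7 arrays and for each fit lacking 1 of them (rows). The counts lie far above those with all arrays only when FLT-Sham 8 or FLT-Surgery 1 is left out.

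Skeletal muscle genes were lower, and in the main fit of all 7 arrays the slow-twitch list had the lowest median of all lists. After normexp background correction the fast-twitch list was lower than it, at -3.48 against -2.08. The sarcomere, the contractile unit of muscle, is built from myosins, actins and troponins whose slow and fast forms are separate genes. All 16 slow-twitch genes on the list were tested and 11 were called lower, none higher, with a median difference of -4.07. Of 36 fast-twitch genes 35 were tested and 17 were called lower, none higher, with a median of -3.93. Many members had passed the background filter only because the shams were bright, 10 slow-twitch and 5 fast-twitch genes being above background on no FLT-Surgery array. Among the members above background on all 7 arrays 3 of 4 slow-twitch genes (median -3.33) and 11 of 20 fast-twitch genes (median -3.01) were called lower, beside a median of 0.02 over all genes whose Cy5 signal passed on all 7.

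Regulatory sequence just upstream of 3 of the called genes is shown as an example, and each of the windows shown holds a motif match. The windows of Csrp3, Myh7, Cfd, Adipoq and Trem2 and the first windows of Myl2 and Mb held no match to the motifs searched for that gene. The windows are the 250 bases before the transcription start from RefSeq on GRCm38.p6, 5′ to 3′ on the gene's strand, with capitals for the motif matches named. Acta1, skeletal muscle alpha-actin, lies at chr8:123894776-123895025 on the minus strand, with a CAGCTG E-box, the kind of site that myogenic factors such as MyoD bind, and a CArG box, the site of serum response factor, in capitals. Myl2, the slow and cardiac regulatory light chain, is shown at chr5:122092939-122093188 on the plus strand, with CAGCTG in capitals, which is the second of 2 start sites. Alas2, the first enzyme of haem synthesis in red cell precursors, lies at chrX:150547167-150547416 on the plus strand, with the GATA-family motif AGATAA and a TATAAA box in capitals, each on the opposite strand.
Acta1: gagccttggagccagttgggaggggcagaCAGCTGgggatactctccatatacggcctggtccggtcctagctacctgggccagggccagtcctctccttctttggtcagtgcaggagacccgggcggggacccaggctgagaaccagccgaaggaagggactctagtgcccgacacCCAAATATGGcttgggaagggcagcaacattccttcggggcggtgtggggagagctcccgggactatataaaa
Myl2: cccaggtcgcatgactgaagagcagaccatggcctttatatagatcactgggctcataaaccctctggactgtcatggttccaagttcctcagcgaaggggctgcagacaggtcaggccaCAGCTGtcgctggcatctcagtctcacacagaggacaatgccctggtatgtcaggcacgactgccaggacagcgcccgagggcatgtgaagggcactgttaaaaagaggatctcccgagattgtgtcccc
Alas2: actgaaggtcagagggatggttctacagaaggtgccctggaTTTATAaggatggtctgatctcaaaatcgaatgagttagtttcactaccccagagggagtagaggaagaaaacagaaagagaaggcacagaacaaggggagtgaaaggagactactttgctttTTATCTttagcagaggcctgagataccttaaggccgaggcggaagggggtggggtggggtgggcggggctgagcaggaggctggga
CAGCTG, which reads the same on both strands, was found in 51.9% of 27 fast-twitch windows and 30% of 20 slow-twitch windows, against 13% of all 32851 windows of that length. The CArG box was found in 14.8% and 5% of them against 1.47%, and the site of MEF2, another muscle transcription factor, in 25.9% and 15% against 2.92%. AGATAA, searched on both strands, was found in 23.5% of 17 erythroid windows against 9.99% of all, and TTNNGCAA, a C/EBP motif, in 23.1% of 13 adipocyte windows against 9.56%. Outside these pairs, CAGCTG was in 23.1% of adipocyte and 5.88% of erythroid windows. TTNNGCAA was in 18.5% of fast-twitch, 5% of slow-twitch and 11.8% of erythroid windows. For AGATAA the shares were 0% of fast-twitch, 15% of slow-twitch and 7.69% of adipocyte windows. A match is only a run of letters and was not tested for binding.

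Among the slow-twitch genes, Tnnt1, the slow skeletal troponin T, was measured on all arrays. Its log2 ratio was 1.75, 0.91 and 0.76 in FLT-Surgery 1, 3 and 5 and 4.74, 5.53, 3.52 and 4.42 in FLT-Sham 4, 6, 8 and 9. The groups did not overlap, and the difference was -3.42 (SE 0.54, limma adjusted p = 0.0795). Myl3, the ventricular and slow essential light chain, was at 5.39, 2.85 and 4.72 against 7.79, 8.35, 7.28 and 8.71, a difference of -3.71 (SE 0.67, limma adjusted p = 0.101). Myh7, the slow myosin heavy chain, was at 4.86, -1.54 and 1.62 against 8.74, 9.22, 6.91 and 8.99, a difference of -6.82 (SE 1.37, limma adjusted p = 0.125). FLT-Surgery 1 was the highest of its group and FLT-Sham 8 the lowest of its own in each of these 3 genes. Myl2 was at 4.58, -1.12 and -0.996 against 7.96, 8.22, 7.10 and 8.59, a difference of -7.14 (SE 1.33, limma adjusted p = 0.112). It was above background on 1 of 3 FLT-Surgery arrays. Csrp3, a Z-disc protein of slow and cardiac muscle, was above background on no FLT-Surgery array and at least 15.8-fold lower, and Myom3, an M-band protein, at least 27.9-fold lower. All of these calls held in each of the 7 fits with an array left out.

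The fast-twitch genes split by how far FLT-Sham 8 and FLT-Surgery 1 overlapped. Myh2, the fast 2A myosin heavy chain, was at 8.77, 4.57 and 5.57 against 11.11, 11.11, 10.11 and 12.55, a difference of -4.92 (SE 1.02, limma adjusted p = 0.13) without overlap. Acta1, whose upstream sequence is given above, was at 4.27, 0.04 and 0.14 against 7.94, 8.54, 3.65 and 7.51, a difference of -5.43 (SE 1.44, limma adjusted p = 0.144). Here FLT-Sham 8 lay below FLT-Surgery 1, and the call held only when one of these arrays was left out. The same was true of Ryr1, the calcium release channel of the sarcoplasmic reticulum (-7.11), Ttn, the giant spring protein titin (-4.84), and Rpl3l, a muscle form of a ribosomal protein (-6.46). Ryr1 and Rpl3l were above background on 1 of 3 FLT-Surgery arrays. The other Ttn probes were not called, at -1.78, -1.66 and, with no FLT-Surgery array above background, -4.67. Myh4, the fast 2B myosin heavy chain and an abundant muscle transcript, did not follow Acta1, Ryr1, Ttn and Rpl3l. It was at 11.64, 11.50 and 10.40 in FLT-Surgery and 9.71, 9.49, 11.69 and 10.85 in FLT-Sham, a difference of 0.74 (SE 0.63, limma adjusted p = 0.438) that turned to -3.67 with Cy5 alone, so that no direction can be given.

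Other genes of muscle fibres were among the 12 genes with the largest fall. Myot, the Z-disc protein myotilin, was at 4.80, 0.00 and 0.00 against 11.23, 12.66, 6.04 and 10.62, where a value of exactly 0 means that both channels were dim and the ratio was set to 0. Mb, the oxygen-binding protein myoglobin, was at 5.15, -1.68 and 1.41 against 8.21, 8.27, 6.58 and 9.13, a difference of -6.42 (SE 1.45, limma adjusted p = 0.136). Cav3, the muscle caveolin, was at least 24.2-fold lower and Scn4b, a sodium channel subunit, at least 30.2-fold lower. Fndc5, the precursor of the exercise-linked peptide irisin, differed by -6.14, and Pdk4, a kinase that turns off pyruvate oxidation, by -7.08. Myot, Mb, Fndc5 and Pdk4 were each above background on 1 of 3 FLT-Surgery arrays. FLT-Sham 8 was the lowest sham for Myot, Mb, Cav3, Scn4b, Fndc5 and Pdk4. Without FLT-Sham 8, 25 fast-twitch and 14 slow-twitch genes were called lower. Within slide 1, which holds 1 sham, the median difference was -5.92 for fast-twitch and -4.82 for slow-twitch genes, and within slide 2, which holds 1 FLT-Surgery array, it was -1.31 and -3.06. Over the other scalings the medians ranged from -3.67 to -3.00 and from -3.71 to -2.08. With slide as a block 5 of 35 fast-twitch and 9 of 16 slow-twitch genes were called lower.

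Muscle also takes up glucose and respires, and some genes of both processes were called lower. Of 87 genes of the electron transport chain, the mitochondrial complexes that make ATP, 85 were tested, 24 were called lower and none higher, with a median of -1.75. Of the 70 above background on all 7 arrays 36 were called lower (median -1.52). Among those called lower were the muscle forms of cytochrome c oxidase subunits. Cox6a2 was at 2.91, 0.44 and 0.41 against 6.18, 6.34, 3.73 and 5.76 (difference -4.25, SE 0.86, limma adjusted p = 0.125), Cox7a1 differed by -4.94 and Cox8b by -5.09. Sdhb, the iron-sulphur subunit of complex II, which all respiring cells use, was at -0.003, -0.84 and -1.30 against 2.62, 2.75, 0.43 and 2.21, a difference of -2.72 (SE 0.65, limma adjusted p = 0.136), but its second probe, also above background on all 7 arrays, differed by -0.38 (SE 0.47). Of 26 glycolysis and glycogen genes 6 were called lower and none higher (median -0.99, beside -0.56 over all genes). They included Pgam2, the muscle phosphoglycerate mutase (-5.45), Slc2a4, the insulin-responsive glucose transporter GLUT4 (-4.33), Hk2, the hexokinase of muscle (-3.35), and Ldhb, the lactate dehydrogenase subunit of oxidative tissues (-2.42). Prkaa2, a catalytic subunit of the energy sensor AMPK, was at -0.83, -2.34 and -1.04 against 4.75, 5.52, 4.34 and 3.36 and at least 20.6-fold lower (limma adjusted p = 0.0397). No array of either group came near the other for Prkaa2, FLT-Sham 8 included. Of 80 cytosolic ribosome genes tested, only the muscle form Rpl3l was called, and their median was -0.21. The call count for electron transport genes ran from 1 to 69 as arrays were left out, the highest without FLT-Sham 8. With slide as a block it was 2, and that for glycolysis genes 1.

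**Figure D3:**
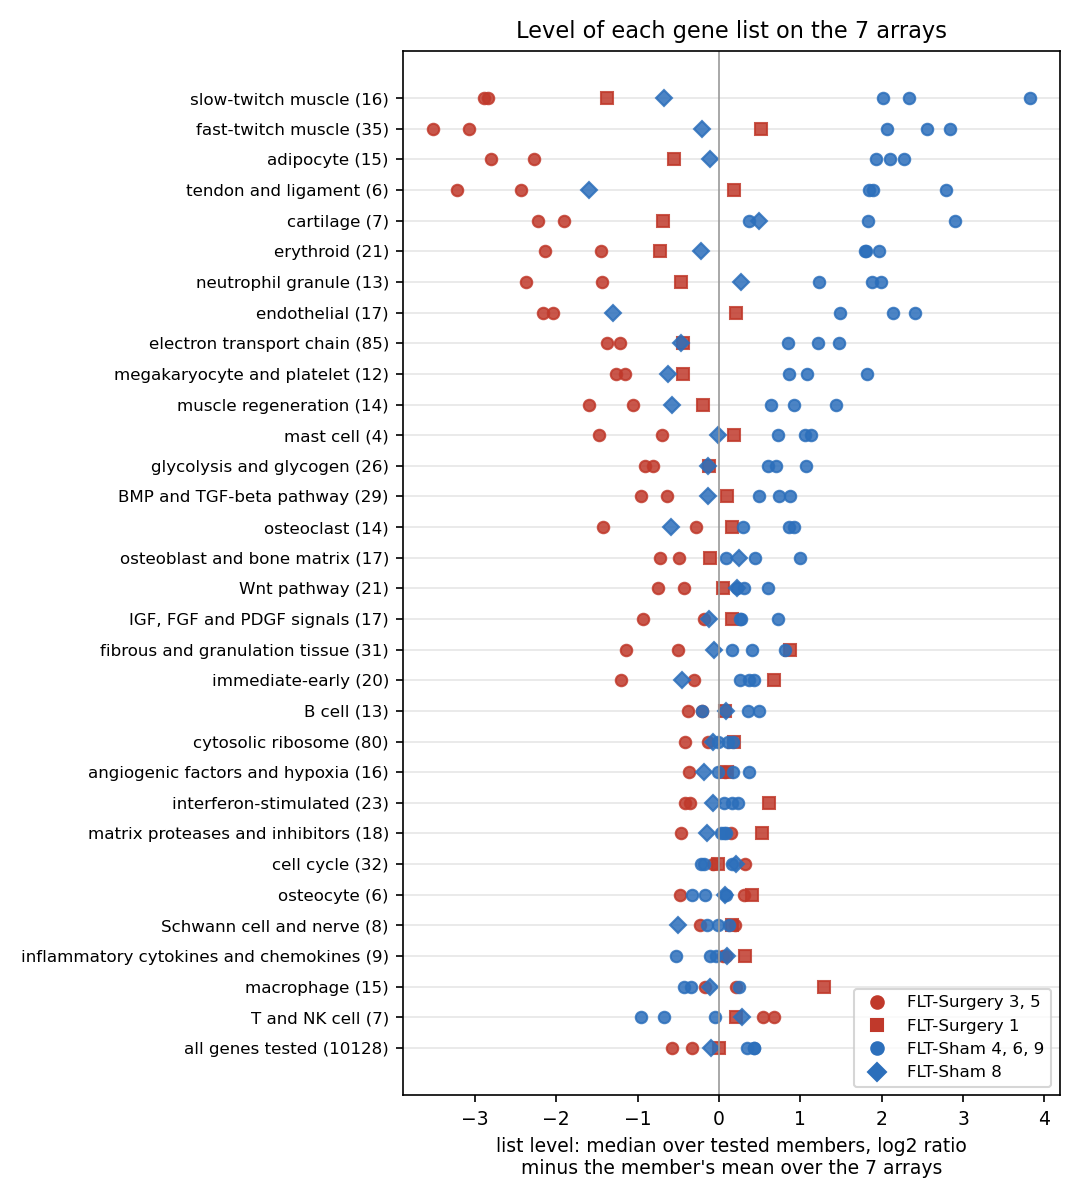
Level of each gene list on each of the 7 arrays, as the median over tested members of the log2 ratio minus the member's mean over the arrays (x axis). FLT-Sham 8 lies below the other shams for the muscle lists, at -0.21 for fast-twitch genes against 2.07 to 2.84.

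Genes of fat cells, which lie in marrow and around muscle, were lower as a group. Of 20 adipocyte genes 15 were tested, 9 were called lower and none higher, and the median difference was -3.57. On all 7 arrays 5 were above background, of which 4 were called lower (median -2.24). Cfd, the complement factor adipsin secreted by fat cells, was at 4.01, 1.54 and -0.30 in FLT-Surgery and 10.71, 9.90, 9.66 and 10.11 in FLT-Sham. Here FLT-Sham 8 lay with the other shams. The difference of -8.34 (SE 0.92, limma adjusted p = 0.0397) passed the adjusted threshold, with 1 of 3 FLT-Surgery arrays above background. Cidec, a lipid droplet protein, was at 0.00 on all 3 FLT-Surgery arrays and at 5.22, 5.81, 3.80 and 6.46 in FLT-Sham, at least 3.59-fold lower (limma adjusted p = 0.0397). Plin1, the perilipin that coats lipid droplets, was at -0.34, 0.00 and 0.00 against 5.28, 4.33, 2.85 and 3.75, at least 2.28-fold lower with 3 of the 4 shams above background. Retn, which encodes the fat hormone resistin, was at 1.52, -0.11 and -1.05 against 3.68, 3.47, 3.06 and 4.01 (-3.43, SE 0.62). Acsl1, which activates fatty acids for storage or oxidation in fat and muscle alike, differed by -5.66, with 1 of 3 FLT-Surgery arrays above background. A second Acsl1 probe, above background on no FLT-Surgery array, was not called (limma adjusted p = 0.241). For Adipoq, which encodes the fat cell hormone adiponectin, FLT-Sham 8 at 1.63 lay below FLT-Surgery 1 at 2.18 while the other shams were at 4.48, 5.02 and 4.51. The call for Adipoq was lost unless FLT-Sham 8 or FLT-Surgery 1 was left out, whereas those for Cfd, Cidec, Plin1, Retn and Acsl1 held whichever array was left out. Pparg, the master regulator of fat cell formation, was at 0.14, -0.41 and -0.98 against 0.29, 0.34, -1.01 and 0.67, with overlapping groups and a difference of -0.49 (SE 0.51, limma adjusted p = 0.526). With slide as a block 6 adipocyte genes were called lower.

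Genes of red cell formation were lower as a group. Of 28 erythroid genes 21 were tested, 11 were called lower and none higher, with a median of -3.25, and 4 of the 7 members above background on all arrays were called lower (median -1.73). Hba-a1, an alpha-globin gene whose near-identical copy can share its probe, was at 6.36, 2.98 and 3.22 against 7.70, 7.50, 6.70 and 7.85. The groups did not overlap, but FLT-Surgery 1 lay just under FLT-Sham 8. Its difference was -3.25 (SE 0.83, limma adjusted p = 0.141). Slc4a1, the anion exchanger band 3 of the red cell membrane, was at 1.47, 1.23 and 1.46 against 6.86, 7.23, 3.87 and 6.59, at least 17.1-fold lower (limma adjusted p = 0.0856). Slc38a5, an amino acid transporter of red cell precursors, was at 1.98, 0.00 and 1.38 against 7.93, 8.68, 5.76 and 8.78, at least 14.7-fold lower (limma adjusted p = 0.0528). Alas2, shown above, was at 4.16, -0.60 and -0.81 against 7.23, 7.45, 4.49 and 8.003. FLT-Surgery 1 and FLT-Sham 8 were the nearest arrays of the 2 groups for Alas2, and the difference was -5.88 (SE 1.35, limma adjusted p = 0.136). Alas2 was above background on 1 of 3 FLT-Surgery arrays. Gata1, the transcription factor of the erythroid lineage, was at least 1.83-fold lower with 3 of 4 shams above background, and its call held only without FLT-Sham 8 among the fits that left out an array. Tfrc, the transferrin receptor that brings iron into red cell precursors, was at least 6.3-fold lower on the same basis. With slide as a block 5 erythroid genes were called lower.

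Of 20 neutrophil granule genes 13 were tested and 5 were called lower, none higher, with a median of -2.53. Over the scalings of all 13 the median ranged from -2.84 to -1.39. Of the 13, 4 were above background on no FLT-Surgery array. Among the 6 above background in Cy5 on all 7 arrays 2 were called lower (median -0.97). Where both channels had to pass, 4 were left, 1 was called lower and the median was 0.05. Mpo, the myeloperoxidase of primary granules, was at 2.07, 0.97 and 1.11 in FLT-Surgery and 6.36, 6.21, 5.65 and 6.57 in FLT-Sham. All shams, FLT-Sham 8 included, lay far above every FLT-Surgery array, and the difference was -4.81 (SE 0.43, limma adjusted p = 0.0397). Camp, the cathelicidin of secondary granules, was at 6.12, 3.60 and 4.46 against 8.48, 9.41, 9.03 and 9.60 (-4.40, SE 0.63, limma adjusted p = 0.0736). Cebpe, the transcription factor that drives granulocyte maturation, was at least 12.7-fold lower (limma adjusted p = 0.0397). Ngp, another secondary granule protein, was at 8.48, 7.24 and 8.28 against 9.45, 10.45, 10.59 and 11.40 (-2.48, SE 0.55). Elane, the neutrophil elastase of primary granules, was not lower, at 3.57, 4.23 and 4.28 against 2.75, 2.63, 3.96 and 3.50 (0.82, SE 0.46, limma adjusted p = 0.279). FLT-Sham 8 was not the lowest sham for Ngp or at the Camp probe shown, but it was for Mpo, Cebpe and a second Camp probe. The level of the list was 0.27 in FLT-Sham 8 and 1.23 to 1.99 in the other shams.

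**Figure D4:**
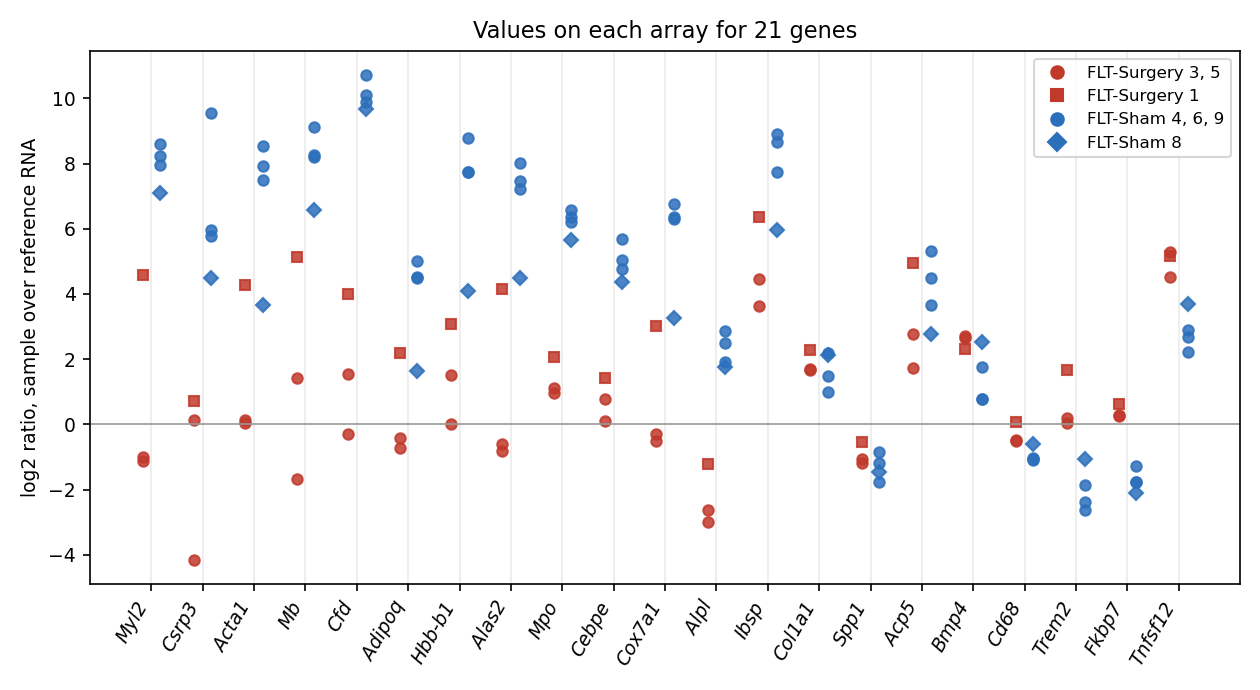
Log2 ratio to the reference RNA (y axis) of 21 genes (x axis) on the 3 FLT-Surgery and 4 FLT-Sham arrays, each point an array. Cfd and Mpo separate the groups with FLT-Sham 8 beside the other shams, whereas for Acta1 and Adipoq FLT-Sham 8 lies below FLT-Surgery 1.

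The smallest adjusted p belonged to a gene outside these lists. Satb1, a chromatin organiser of lymphocytes and stem cells, was at -1.90, -2.37 and -2.005 against 3.33, 4.03, 3.57 and 2.78. It was above background on no FLT-Surgery array and at least 10.3-fold lower (limma adjusted p = 0.0201). The spread within each group was small beside the gap, with FLT-Sham 8 in the middle of the shams. Mki67, a protein of dividing cells, was at -2.87, -2.92 and -2.33 against -0.78, -0.67, -1.09 and 0.10, a difference of -2.09 (SE 0.41, limma adjusted p = 0.121). It was the only called gene of the 32 cell cycle genes tested, whose median was 0.17.

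Genes higher in FLT-Surgery were few and their changes smaller. Trem2, a lipid-sensing receptor of macrophages and of cells of the osteoclast lineage, had the largest difference among those whose groups did not overlap. It was at 1.65, 0.19 and 0.03 in FLT-Surgery and -2.62, -2.39, -1.08 and -1.86 in FLT-Sham, a difference of 2.61 (SE 0.56, limma adjusted p = 0.135). Fkbp7, a protein-folding enzyme of the endoplasmic reticulum, was at 0.61, 0.29 and 0.26 against -1.78, -1.76, -2.09 and -1.28 (2.11, SE 0.35, limma adjusted p = 0.0856). Its 7 values showed FLT-Sham 8 as the lowest sham, away from FLT-Surgery. Tnfsf12, the cytokine TWEAK of injured tissue and muscle, was at 5.15, 4.52 and 5.27 against 2.68, 2.23, 3.68 and 2.91 (2.11, SE 0.45, limma adjusted p = 0.131). Grip1, a scaffold protein best known from synapses, was at 3.45, 3.65 and 3.29 against 1.65, 1.24, 2.19 and 1.63 (1.79, SE 0.36, limma adjusted p = 0.125). The calls for Trem2, Fkbp7, Tnfsf12 and Grip1 held in all 7 fits with an array left out, and none of the 4 changed sign under another scaling or filter.

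The other genes among the 12 with the largest rise were Slc22a28, an organic anion transporter (2.15), Prss48, a serine protease (2.02), Lhfpl5, a channel-associated protein of inner ear hair cells (1.90), Knstrn, a spindle protein (1.77), Krt9, a keratin (1.58), Dcaf12l2 (1.57), Sox5 (1.56) and Rnu2-10, a small nuclear RNA from a multicopy family whose probe cannot be tied to one gene (1.56). Their calls held in 1 to 4 of the 7 fits with an array left out. Itgb2, the beta-2 integrin by which leukocytes adhere, was at -0.56, -0.10 and 0.59 against -2.07, -1.59, -0.96 and -1.41 (1.49, SE 0.44, limma adjusted p = 0.15). Lrp1, an endocytic receptor of macrophages and fibroblasts, was at -0.15, 0.26 and 0.71 against -1.02, -1.27, -0.94 and -1.09 (1.35, SE 0.35, limma adjusted p = 0.144). Vash1, an inhibitor of vessel growth, rose by 1.45 (SE 0.39). Both Itgb2 and Lrp1 held only when FLT-Sham 8 or FLT-Surgery 1 was left out, and Itgb2, Lrp1 and Vash1 lie outside the naming rule and were chosen for their known functions after their values were seen.

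Macrophage genes as a list had a median above 0, which rested in part on FLT-Surgery 1. Of 25 such genes 15 were tested, Trem2 was called higher and none lower, 11 of the 15 differences were above 0 and their median was 0.64. Over the other scalings that median was 0.50 to 1.20. It was 0.25 without FLT-Surgery 1, with 1 member then called lower, and the level of the list was 1.29 in FLT-Surgery 1 but 0.21 and -0.17 in FLT-Surgery 3 and 5, within the range of the shams, -0.44 to 0.25. Cd68, a lysosomal protein of macrophages, was at 0.07, -0.47 and -0.52 against -1.02, -1.11, -0.60 and -1.05, a difference of 0.64 (SE 0.35, limma adjusted p = 0.272). Itgam, the integrin of myeloid cells, was at 8.74, 8.68 and 9.26 against 5.83, 6.68, 8.94 and 8.33, a difference of 1.45 (SE 0.76, limma adjusted p = 0.261) in which FLT-Sham 8 reached the level of FLT-Surgery. C1qc, a complement subunit made by tissue macrophages, was at 4.62, -0.38 and -0.06 against 3.86, 3.92, 0.24 and 2.85, so that only FLT-Surgery 1 was high (-1.32, SE 1.39, limma adjusted p = 0.528). Laptm5, a lysosomal protein of leukocytes, had the same shape, at 1.16, -4.34 and -1.60 against -0.22, -0.50, -1.22 and -0.55. Of 24 T and NK cell genes 7 were tested, and all 7 lay above 0 with a median of 0.50 and none called. Cd3e of the T cell receptor complex was at 2.14, 2.75 and 2.49 against 0.73, 0.68, 2.11 and 1.62 (1.17, SE 0.47, limma adjusted p = 0.187). Its partners in that complex, Cd3d, Cd3g and Cd247, were above background on none of the 7 arrays. Of 26 inflammatory cytokine and chemokine genes 9 were measurable and none was called, and the monocyte attractant Ccl2 differed by 0.59 (SE 0.40).

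Bone-forming genes did not move as a block. Of 25 osteoblast and bone matrix genes 17 were tested, 4 were called lower and none higher, with a median of -0.89 that was -0.26 among the 8 above background on all 7 arrays. The collagen that makes up most of the bone matrix differed little. Col1a1 was at 2.28, 1.66 and 1.70 against 2.18, 1.48, 2.14 and 0.99 (0.18, SE 0.43, limma adjusted p = 0.781), and Col1a2 at 1.49, 0.49 and 0.25 against 1.48, 0.86, 1.22 and 1.04 (-0.41, SE 0.42, limma adjusted p = 0.511). Both groups overlapped for each. Spp1, the matrix and inflammatory protein osteopontin, differed by 0.38 (SE 0.38, limma adjusted p = 0.507).

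The 4 members called lower were Alpl, Pth1r, Tnn and Bglap2. Alpl, the alkaline phosphatase needed for mineralisation and also active in neutrophils, was at -1.22, -2.99 and -2.62 against 2.86, 2.49, 1.76 and 1.92. It was above background on no FLT-Surgery array and on all 4 shams, at least 9.48-fold lower (limma adjusted p = 0.0397), and the call held in all 7 fits with an array left out. Pth1r, the parathyroid hormone receptor of osteoblasts and osteocytes, was at 0.71, -1.06 and -2.13 against 4.61, 3.97, 1.24 and 3.67, at least 8.37-fold lower (limma adjusted p = 0.136). Tnn, the matrix protein tenascin N of bone surfaces, was at 1.18, -1.88 and -0.70 against 5.27, 4.51, 2.23 and 2.72, at least 6.14-fold lower. Both calls were lost when FLT-Surgery 3 or FLT-Surgery 5 was left out. Bglap2, one of the near-identical osteocalcin genes that a probe may not separate, was at 3.71, 1.07 and 0.30 against 6.27, 5.34, 4.80 and 3.86 (-3.38, SE 0.90, limma adjusted p = 0.144), a call that held only without FLT-Surgery 1, FLT-Sham 8 or FLT-Sham 9. Its sister Bglap was at 1.71, -1.48 and 1.54 against 4.14, 3.77, 0.85 and 1.86 (-2.06, SE 1.06, limma adjusted p = 0.256). Another sister outside the naming rule, Bglap3, was above background on all 7 arrays and called lower without overlap (-3.18, SE 0.58, limma adjusted p = 0.103). Ibsp, the bone sialoprotein of new mineral, was at 6.35, 4.47 and 3.64 against 8.65, 8.91, 5.95 and 7.75 (-3.00, SE 0.89), just outside the cut-off at a limma p of 0.0101, and a second Ibsp probe differed by 0.04. FLT-Surgery 1 was the highest FLT-Surgery array for Alpl, Pth1r, Tnn, Bglap2, Bglap and Ibsp. Runx2, the master transcription factor of osteoblasts, was above background on no FLT-Surgery array and on at most 2 shams, and Sp7, its downstream partner, on none, so neither was tested. Likewise the osteocyte genes Sost, a Wnt inhibitor, and Dmp1, a matrix phosphoprotein, were above background nowhere, and of 6 osteocyte genes tested none was called (median -0.06).

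The arrays of the groups overlapped for all but 1 of the osteoclast genes tested. Of 22 genes 14 were tested, none was called, and the median was -0.91, or 0.36 among the 6 above background on all 7 arrays. Ctsk, the collagen-degrading cathepsin K, was at 6.02, 1.36 and -3.41 in FLT-Surgery and 5.10, 4.71, 1.31 and 3.43 in FLT-Sham (-2.31, SE 2.02, limma adjusted p = 0.449). The FLT-Surgery mice spanned more than the whole range of the shams. Acp5, the tartrate-resistant acid phosphatase used to stain osteoclasts, was at 4.96, 2.77 and 1.72 against 5.33, 4.48, 2.77 and 3.67 (-0.91, SE 0.88, limma adjusted p = 0.492). Tnfrsf11a, which encodes RANK, the receptor for the osteoclast-forming signal, was at 2.94, 3.22 and 3.23 against 2.39, 2.21, 2.63 and 1.71, without overlap but under the fold cut-off (0.90, SE 0.36, limma adjusted p = 0.19). Its ligand Tnfsf11 was above background on no array and Mmp9, a protease of osteoclasts and neutrophils, on 1 sham.

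Cartilage, the usual intermediate of callus, left little signal in either group. Of 25 cartilage genes 7 passed the filter, and Sox9, Col9a1 and Col10a1, the collagen of hypertrophic chondrocytes, were above background on none of the 7 arrays. Col2a1, the main cartilage collagen, was at 1.76, -2.14 and -2.46 against 2.66, 0.64, 1.06 and -3.19 (-1.24, SE 1.52, limma adjusted p = 0.586) and was above background on 1 of 3 FLT-Surgery arrays. Acan, the proteoglycan aggrecan, was at 0.74, 1.98 and 1.47 against 1.89, 1.43, 2.24 and 1.40 (-0.34, SE 0.43, limma adjusted p = 0.599). The groups overlapped for both. Chad, an adhesive matrix protein of cartilage and bone, was lower at 1.42, 1.49 and 2.65 against 4.40, 5.03, 3.85 and 3.58 (-2.36, SE 0.51, limma adjusted p = 0.135), and Fgfr3, a receptor that restrains chondrocyte growth, was at least 5.8-fold lower (limma adjusted p = 0.0896). Both calls held in all 7 fits with an array left out. Sox5, a partner of Sox9 in chondrocytes that other tissues use as well, was higher at 6.51, 6.40 and 6.68 against 4.72, 4.42, 5.47 and 5.27 (1.56, SE 0.39, limma adjusted p = 0.138). The median of the 7 genes was -2.36, and over the other scalings -1.87 to -0.85, and Sox5 was the only one above background on all 7 arrays.

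Genes of fibrous and granulation tissue, the material that fills an unbridged defect, were measurable in both groups and not called in either direction. Of 33 genes 31 were tested, with a median of -0.67, or 0.02 among the 17 above background on all arrays. Without FLT-Surgery 1, 7 were called lower (median -1.29), and without FLT-Sham 8, 3 lower and 1 higher (median -0.69). Within slide 1 the median was -1.40 and within slide 2 it was 0.65, so its sign differed between slides. Postn, the matrix protein periostin of periosteum and healing tissue, was at 2.86, -3.69 and -2.60 against 4.21, 3.54, 1.62 and 1.95 (-3.97, SE 1.51, limma adjusted p = 0.18). FLT-Surgery 1 was within the sham range and the other 2 far below it. Lum, the collagen-binding protein lumican, had the same shape at 4.10, -0.23 and -3.62 against 5.86, 4.85, 4.15 and 3.35 (-4.47, SE 1.61, limma adjusted p = 0.171). Fn1, the fibronectin of provisional matrix, was at -1.30, -1.32 and -1.64 against -2.40, -2.55, -1.89 and -2.32, without overlap (0.87, SE 0.34, limma adjusted p = 0.185). Fap, a protease of activated fibroblasts, differed by -2.56 (SE 0.86, limma adjusted p = 0.159). Scx, a transcription factor of tendon cells, was called lower (-2.48, SE 0.69), as was Timp3, an inhibitor of matrix proteases (-2.40, SE 0.59), and both calls held only without FLT-Sham 8 or without FLT-Surgery 1. Mmp13, the collagenase of hypertrophic cartilage and osteoblasts, was at 0.55, -2.89 and -3.26 against 2.14, 2.07, -3.50 and -1.15 (-1.75, SE 1.56, limma adjusted p = 0.458).

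Vessels feed a healing defect. Of 22 endothelial genes 17 were tested and none was called, with a median of -3.14 that was 0.31 among the 5 above background on all arrays. Cdh5, the cadherin of endothelial junctions, was at 2.09, -0.32 and 0.00 against 7.47, 8.15, 0.00 and 5.77, with FLT-Sham 8 at 0 like FLT-Surgery 5 (limma adjusted p = 0.183), and Cldn5, a tight junction protein, at 2.35, -0.71 and 0.00 against 6.47, 7.98, 1.18 and 4.77 (limma adjusted p = 0.16). Vwf, the clotting factor stored by endothelium, differed by -3.51 (SE 1.14, limma adjusted p = 0.158). Without FLT-Sham 8, 9 endothelial genes were called lower. For Kdr, the main VEGF receptor, the brighter probe differed by 1.55 (SE 0.49) and the other by -3.80, so no direction can be given. Vegfa, the vessel growth factor itself, was at 1.32, 1.57 and 1.24 against 0.95, 0.49, 1.14 and 1.14 (0.45, SE 0.34, limma adjusted p = 0.392), while a second probe, above background on 1 of 3 FLT-Surgery arrays, differed by -2.02 (SE 1.41). Ankrd37, a hypoxia target, was at least 2.51-fold lower with 3 of 4 shams above background, a difference that turned to 0.74 after normexp.

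The signals that steer repair were mostly not called. Of 42 BMP and TGF-beta pathway genes 29 were tested. Of these 2 were called lower (Tgfb2 and Tgfbr3), 6.9% beside 8% of all genes, and none higher. The median was -1.12, or 0.08 among the 14 above background on all arrays. With slide as a block none was called lower. The count was 9 without FLT-Surgery 1 and 8 without FLT-Sham 8. Among the ligands, Bmp2, which starts bone healing, was at -0.16, 0.00 and -0.22 against 3.04, 3.29, -0.18 and 3.35. FLT-Sham 8 was at the FLT-Surgery level and the other shams were above it, and with 3 of 4 shams above background the level was at least 1.1-fold lower (limma adjusted p = 0.164). Bmp4, a related ligand, was at 2.32, 2.70 and 2.66 against 0.78, 0.79, 2.52 and 1.75 (1.10, SE 0.51, limma adjusted p = 0.227), Bmp7 was at least 1.36-fold lower with 3 of 4 shams above background and not called, and Tgfb1 differed by -0.04 (SE 0.43). Tgfb2, a ligand of the TGF-beta family, was at -2.91, -4.42 and -5.30 against -0.36, 0.17, -2.42 and -1.21, at least 5.83-fold lower with 3 of 4 shams above background (limma adjusted p = 0.136). Tgfbr3, the co-receptor betaglycan, was at least 5.13-fold lower on the same basis, and its difference turned to 0.17 after normexp.

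Of 24 IGF, FGF and PDGF genes 17 were tested and 3 were called lower, none higher (median -0.50). They were Fgf9, a ligand of early callus (at least 2.26-fold), Fgf18, a ligand for cartilage and bone growth (-1.42, SE 0.41), and Irs1, the adaptor of the insulin and IGF receptors (at least 5.34-fold). With slide as a block none of the 17 was called lower. After a second loess none was called lower and 2 higher, and without FLT-Surgery 1, 6 were called lower. Igf1, the growth factor of bone and muscle, was at 0.68, -0.40 and -2.20 against 0.42, -0.10, -0.77 and -0.10 (-0.50, SE 0.68), and its 4 probes disagreed in sign. Of 35 Wnt pathway genes 21 were tested and 1, the secreted inhibitor Wif1, was called lower, at least 1.43-fold with 3 of 4 shams above background. That is 4.76%, beside 8% of all genes. Of 26 muscle regeneration genes 14 were tested and 3 were called lower, among them Myf6, a late myogenic transcription factor (at least 7.48-fold), and Trim63, the ubiquitin ligase MuRF1 of muscle wasting (at least 14.6-fold), each with 3 of 4 shams above background. A second Trim63 probe was not called (limma adjusted p = 0.26). None of the 14 genes was called lower with slide as a block, or without FLT-Surgery 5. A second loess moved the median of the Wnt list to 0.22 and that of the IGF, FGF and PDGF list to 0.12.

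Whether the response to surgery differed from that on the ground was tested with all 15 arrays in 1 fit. There the difference between the surgery effects was called lower for 732 of 11104 genes (6.59%) and higher for 25 (0.225%), but no probe passed at an adjusted p of 0.05 in limma, where the smallest was 0.0805 and 4245 of 21777 probes reached 0.05 before adjustment. Single arrays decided this count, since 3013 probes passed at an adjusted p of 0.05 without FLT-Sham 8 and 633 without FLT-Surgery 1. On the ground alone 253 genes were called higher (2.28%) and 45 lower (0.405%), the reverse of the balance in flight. The balance of the difference again depended on scaling, with 664 probes called higher and 233 lower after a second loess. Over the 11104 genes the surgery effects in flight and on the ground correlated at 0.20 (Spearman 0.14), given as a description over genes, which are not replicates.

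**Figure D5:**
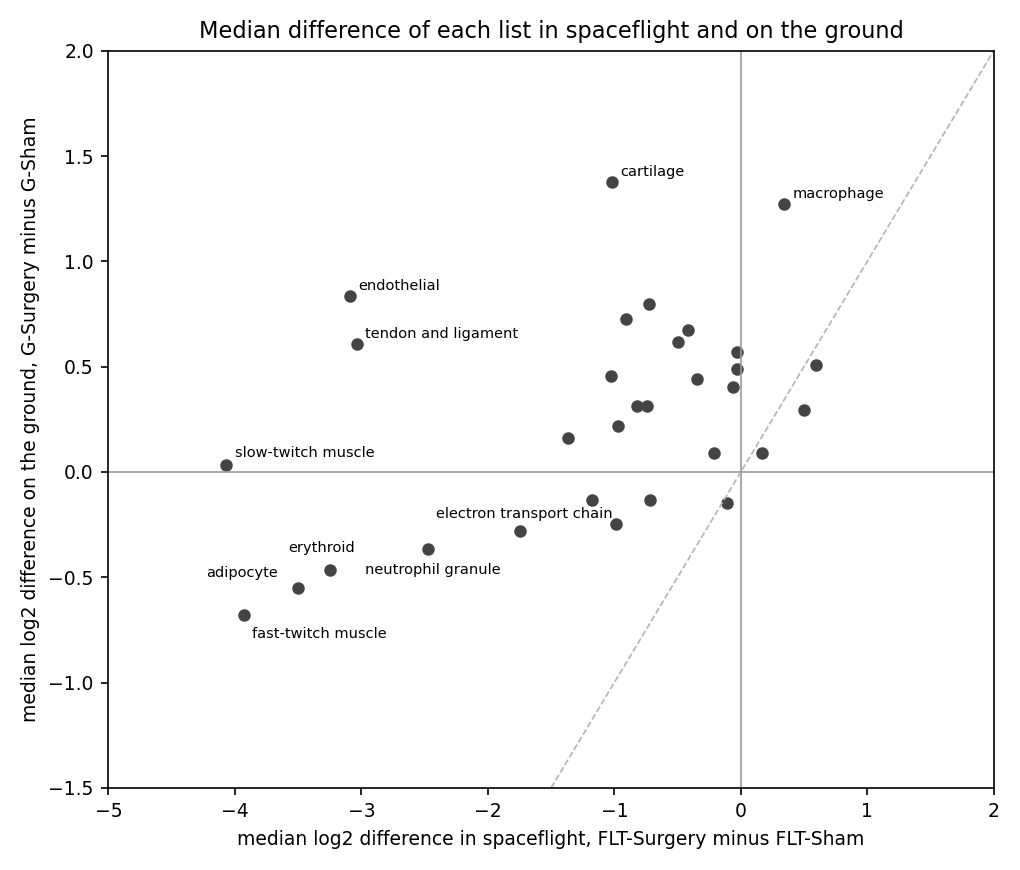
Median log2 difference between surgery and sham over the tested members of each gene list in spaceflight (x axis) and on the ground (y axis), from 1 fit of all 15 arrays. Slow-twitch muscle lies far to the left near 0 on the ground (-4.07 and 0.03), and fibrous tissue below 0 in flight and above it on the ground (-0.72 and 0.80).

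The muscle, fat and red cell lists that were low in flight had medians nearer to 0 on the ground. The ground median was 0.03 for slow-twitch and -0.68 for fast-twitch genes, -0.55 for adipocyte and -0.47 for erythroid genes. The difference between flight and ground was called lower for 8 of 16 slow-twitch, 2 of 35 fast-twitch, 3 of 16 adipocyte and 3 of 21 erythroid genes. Over all genes it was called lower for 6.59%, and the fast-twitch count lies under that share. For Tnnt1 the ground difference was 0.21 (SE 0.72) and the flight-minus-ground difference -3.63 (SE 1.06, limma adjusted p = 0.172). For Myh7 it was -0.42 (SE 1.39), and G-Surgery at 6.99 ± 2.41 (SD, n = 4) overlapped G-Sham at 7.41 ± 1.88 (SD, n = 4). Of the 810 genes called lower in flight, 513 were below 0 on the ground, for which no share over all genes is given. Of the 810, 10 were called lower there, beside 0.405% of all genes.

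Some callus genes were called higher on the ground. Col2a1 was at 4.97 ± 2.49 (SD, n = 4) in G-Surgery and -1.05 ± 1.25 (SD, n = 4) in G-Sham, above background on all 4 G-Surgery and no G-Sham arrays, and the flight-minus-ground difference was called lower (limma adjusted p = 0.171), with no size given because G-Sham was at background. Ibsp rose by 2.75 (SE 0.92) on the ground, at a limma p of 0.00963, and the flight-minus-ground difference was -5.75 (SE 1.35, limma adjusted p = 0.167). H2-DMb1, a chaperone that loads antigen onto MHC class II in macrophages and B cells, was at 2.25 ± 0.70 (SD, n = 4) in G-Surgery and -1.76 ± 0.22 (SD, n = 4) in G-Sham. In flight it was at 1.11, -0.37 and -0.85 against 0.64, 1.06, -0.38 and 0.93, with overlapping groups. Its flight-minus-ground difference was called lower with the smallest adjusted p of the fit (limma, 0.0805), which it shared with Tubgcp4, again with no G-Sham array above background. The other genes with the smallest p in that direction, Tubgcp4, Plekha3, Mterf1b and Stambp, were above background on no FLT-Surgery and no G-Sham array, so no size is given, and the flight difference of Plekha3 turned to 0.19 after normexp.

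In the other direction the genes with the smallest p included Cabp5 (2.07), Sox5 (1.81) and Cplx2 (1.70), with ground differences of -0.58 to -0.23. Cabp5 is best known from the retina and Cplx2 from synapses. Cryga was also among them but was above background on 1 FLT-Surgery and no FLT-Sham array, so no size is given. The macrophage genes had a ground median of 1.27 with 5 of 19 called higher there, against 0.35 in flight for the same 19, and the difference between the settings was called lower for 4. Over all genes 2.28% were called higher on the ground, and the difference was called lower for 6.59%. C1qc and Laptm5 rose on the ground by 4.01 (SE 1.20) and 3.75 (SE 0.90) and not in flight, with flight-minus-ground differences of -5.34 and -4.72 (limma adjusted p = 0.184 and 0.171). Of the 30 genes called higher in flight 23 were above 0 on the ground and 3 were called higher there. Trem2 was one, at 1.80 ± 0.81 (SD, n = 4) in G-Surgery and -1.79 ± 0.46 (SD, n = 4) in G-Sham, a rise of 3.58 (SE 0.50, limma adjusted p = 0.0461). Fkbp7 rose by 2.23 (SE 0.39) and Lrp1 by 1.22 (SE 0.31) there. The flight-minus-ground differences were -0.97 (SE 0.73, limma adjusted p = 0.449) for Trem2, -0.11 (SE 0.58, limma adjusted p = 0.925) for Fkbp7 and 0.13 (SE 0.45, limma adjusted p = 0.891) for Lrp1.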

How the data were processed

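RNA of the midshaft femur was labelled with Cy5 and hybridised to Agilent 2-colour mouse arrays against a Cy3-labelled universal mouse reference RNA, with no dye swap. The authors deposited the scanner output of each array (Agilent Feature Extraction 12.0 per the labels), which gives for every spot the Cy5 and Cy3 intensity, already background-subtracted and dye-normalized by the software, the unprocessed median intensity and background, and the log10 ratio of the channels. The series table that the authors deposited is likewise a log10 ratio and lay within 0.005 of the scanner values. No Cy5 spot was saturated, and ratios were set to 0 by the software where both channels were dim. The number of arrays limits the precision. No source states separate cultures or litters beyond 1 mouse per array.

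Log10 ratios were converted to log2, control and outlier spots left out, and spots of a probe averaged. Of 55681 probes 28026 were given a symbol by matching accessions to RefSeq, and the remainder are under the array's own names. Probes whose Cy5 signal was flagged well above background on 3 or more of the 7 arrays were fitted with limma 3.58.1 in R 4.3.3, with Benjamini-Hochberg adjustment over all probes. The difference from the ground was a contrast over 15 arrays. The planned normexp used median in place of mean signals, with an offset of 50. Alternatives were 12 settings and 7 fits without an array. Single values were tested by exact permutation. Lists were described by counts and medians only. The fit was tested on simulated data. Comparisons, lists and members were chosen with earlier results of these data known.

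Genes named were the 12 largest called differences in each direction without overlap and above background on every array of the higher group, up to 4 members of each list with the smallest p, a fixed set of bone, muscle and marrow genes, and 5 genes in each direction for the difference from the ground. Some of them are given only within counts or are not reported here. For the 15 arrays the replicate number was fitted as a block, although no source says that a number marks a shared animal or litter.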

Additional observations from a re-analysis of the deposited data

Results flagged for a closer look

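In the 4 FLT-Sham arrays, 11 of 148 values of genes or lists examined had 1 array far from the other 3, and chance alone would flag about 7.4, or 1 in 20. FLT-Sham 8 was the array apart in all 11. Among muscle genes, the log2 ratio of Ryr1 was 4.21 there and 9.08 to 9.69 in the other shams, that of Rpl3l 3.77 against 9.05 to 9.32, and that of Cox7a1 3.25 against 6.29 to 6.77. Among fat and marrow genes, Adipoq was at 1.63 against 4.48 to 5.02, Tfrc at -0.69 against 2.61 to 3.09, Car2, a carbonic anhydrase of red cells and osteoclasts, at -0.88 against 4.17 to 4.36, and Cd24a, a surface protein of B cell and red cell precursors, at -0.041 against 1.937 to 1.999. Bmp2 was at -0.18 against 3.04 to 3.35. Cd68 was higher in FLT-Sham 8, at -0.60 against -1.11 to -1.02. The adipocyte list lay at -0.11 against 1.93 to 2.27 and the erythroid list at -0.22 against 1.80 to 1.97, as medians over members after centring each gene on its mean over the 7 arrays. The cause was not tested.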

How the results depend on the processing

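The numbers of probes called higher, called lower and at an adjusted p of 0.05, which were 81, 1191 and 16, became 617, 576 and 0 with a second loess, 305, 838 and 2 with centring, 97, 196 and 0 with normexp, 303, 1004 and 3 with Cy5 alone, 298, 984 and 1 without the background filter, 168, 413 and 0 with Cy5 above background on all 7 arrays, 169, 416 and 0 with both channels above it, 335, 2258 and 870 when the fit took in the ground arrays too, 61, 489 and 0 with slide as a block, and 2814, 6471 and 11667 with array weights. The cause of these shifts was not tested. Keeping outlier spots gave 81, 1191 and 16, and the deposited series values gave 84, 1193 and 16. With an array left out they ranged from 14 to 943, from 398 to 3959 and from 0 to 6034, the highest without FLT-Sham 8. The share of the sum of squares, 41.7%, ranged from 35.1% to 65.6% with an array left out and from 31.4% to 42.7% under the other settings. No paired analysis was possible because FLT-Surgery and FLT-Sham share no replicate number. For the difference from the ground, with 78 probes higher, 1082 lower and 0 at an adjusted p of 0.05, the replicate block gave 83, 316 and 0, the second loess 664 and 233, and slide as a block 66 and 738. With an array left out the counts were 30 to 816, 494 to 2954 and 0 to 3013. After normexp the differences of Tgfbr3, Ankrd37 and Plekha3 reversed, to 0.17, 0.74 and 0.19. Of the probes tested, 3308 were not above background on any FLT-Surgery array and 3 on any FLT-Sham array, which limits what the lower calls can measure.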
